A study of Mus musculus with 10 samples.

Results

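The 263 rows described here are the immunoglobulin gene segments and constant genes among 22329 gene rows measured in tumours. They were chosen by gene symbol alone: V, D and J segments of the heavy, kappa and lambda chains, the constant genes of each antibody class, and Jchain. The tumours grew from B16F10, a mouse melanoma cell line injected under the skin of C57BL6/J mice, and each received 1 injection of 80 µg mRNA. In 5 control tumours (libraries 1 to 5) that mRNA encoded luciferase. In 5 cytokine tumours (libraries 6 to 10) it was 4 mRNAs of 20 µg each, for mouse single chain IL-12, IL-15sushi, GM-CSF and IFNalpha. Polyadenylated RNA was sequenced from tumours taken 7 days later. Values are TPM, a share of transcripts corrected for transcript length, so levels can be set side by side between genes of ordinary length. The depth of the libraries is unknown, and a row at 0 may be absent or below what a library could show.

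An antibody is built from paired heavy and light chains. In each B cell a heavy chain gene is assembled by joining a V, a D and a J segment, and a light chain gene by joining a V and a J segment of the kappa or lambda locus; the assembled exon is then spliced to a constant exon. Naive B cells make the mu and delta heavy chains, class switching replaces them with gamma, alpha or epsilon, and plasma cells make antibody RNA in very large amounts. In GENCODE release M21 (build GRCm38) the 144 heavy chain rows lie on chromosome 12 (113254830 to 116000461), the 106 kappa rows on chromosome 6 (67555497 to 70726966), the 12 lambda rows on chromosome 16 (19061618 to 19260859), and Jchain on chromosome 5. The build behind the deposited values is uncertain, so these positions come only from that annotation, which held all 263 symbols.

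The germline J segments are shown first because their few bases set the largest values in the group. Capitals mark a motif that reads TGGGG, any 4 bases and GG with 1 more base in heavy J rows, and TTCGG, any 4 bases and GG with 1 more base in light J rows. These letters encode the tryptophan or phenylalanine, glycine, any residue, glycine turn shared by J segments.
Ighj1: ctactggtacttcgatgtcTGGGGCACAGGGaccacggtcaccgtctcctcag
Ighj2: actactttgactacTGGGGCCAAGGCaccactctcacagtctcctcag
Ighj3: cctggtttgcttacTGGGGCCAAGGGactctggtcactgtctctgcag
Ighj4: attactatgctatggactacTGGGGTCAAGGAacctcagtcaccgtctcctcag
Igkj1: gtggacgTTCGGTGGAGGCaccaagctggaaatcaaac
Igkj3: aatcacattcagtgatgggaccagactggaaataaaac
Iglj1: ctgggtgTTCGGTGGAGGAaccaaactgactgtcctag
The sequences are the spliced transcripts of GENCODE M21, read 5′ to 3′ on the coding strand. The heavy motif was found in 4 of 4 heavy J rows and in 4.59% of 218 V rows on either strand. The light motif was found in 4 of 5 kappa J rows (Igkj3 lacks these letters), in 4 of 5 lambda J rows and in 0 of 218 V rows. The D segments are shorter still, from 10 to 29 bases, and several are identical in sequence: Ighd2-5 and Ighd2-6 are both cctactatagtaactac, and Ighd5-2, Ighd5-3, Ighd5-4 and Ighd5-6 share gaatacctac. Reads from such copies cannot be assigned to 1 of them.

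Some libraries stood apart from the rest in sums and counts over many rows. Library 7 listed 276 of 1498 chemosensory receptor rows above 0, against 11 to 40 in the other 9, and its 7 melanocyte genes summed to 41.9 TPM, against 2569 to 16635 TPM elsewhere. Mitochondrial genes took 4.44% of the TPM in library 7 and 8.22% to 27.9% in the others. Receptor gene segments, short T cell receptor and immunoglobulin rows included, took 5.79% of the TPM in library 6, 4.72% in library 7 and 10.9% in library 8. In the other libraries they took at most 1.92%. The immunoglobulin row Ighj2 alone took 2.19% in library 8. A limma fit without libraries 6 and 7 called 11 of 12071 genes, all higher in cytokine tumours. None of the 11 was an immunoglobulin row or a gene of the lists below, so every call on those lists was lost or could not be tested without these libraries. The larger changes with single libraries left out are given with each result.

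Few immunoglobulin rows were listed in these melanomas. Of the 263 rows, 199 (75.7%) were at 0 in all 10 libraries, against 21.6% of all 22329 rows. This count does not measure how much immunoglobulin RNA was present. D and J rows under 48 bases number 27, and none of the 41 rows of that length in the whole table was listed. V segments make up 218 of the 263 rows, and each B cell clone uses its own. Of the 64 rows listed above 0 somewhere, 35 (54.7%) were listed only in cytokine tumours, 9 (14.1%) only in control tumours and 20 in both. Over all 17505 rows listed somewhere, these shares were 11.7% (2040 rows) and 1.82% (319 rows), and 15146 rows were listed in both groups. More rows listed only in cytokine than only in control tumours was thus a trait of the whole table. Without library 7 the shares over all rows were 6.12% and 3.67%, and those of immunoglobulin rows 48.2% and 23.2%. Library 8 decided much of the immunoglobulin counts. Without it, 18 immunoglobulin rows were listed only in cytokine tumours and 15 only in control tumours. Without control library 2 the rows listed in both groups fell from 20 to 12. Igkc and Ighm were the only rows listed in all 10 libraries. The test across genes (limma on log2(TPM + 1)) took the genes that reached 1 TPM in 5 or more libraries. It could take 3 immunoglobulin rows, Ighm, Igkc and Ighg2c, each with values of at least 1 TPM in both groups. None of the 3 was called at an adjusted p under 0.05, while 10.4% of all 12497 genes tested were called, 7.41% higher and 3.02% lower in cytokine tumours. At an unadjusted p under 0.05, 2 of the 3 were past the threshold, against 30.5% of all genes tested, and the groups overlapped in all 3, against 9.23% of tested genes without overlap. In bulk RNA, fewer B cells and less antibody RNA per cell cannot be told apart.

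Ighm encodes the mu chain of IgM, the class of naive B cells and early responses (chromosome 12, 113418558 to 113422730). Its TPM in control libraries 1 to 5 was 16.5, 37.0, 12.3, 9.08 and 1.79, and in cytokine libraries 6 to 10 it was 25.4, 106, 87.4, 26.6 and 11.6. Libraries 7 and 8 were the highest, control library 2 exceeded cytokine libraries 6, 9 and 10, and the groups overlapped. The means were 15.3 ± 13.3 and 51.4 ± 42.3 TPM (± SD, 5 per group), a log2 difference of 1.69 ± 0.73 (SE) with a limma adjusted p of 0.143. Without libraries 6 and 7 the log2 difference was 1.39 (limma adjusted p = 0.401).

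Igkc, the constant exon of the kappa light chain (chromosome 6, 70726435 to 70726966), was the most abundant constant gene in most libraries. Its TPM was 4.75, 51.1, 23.9, 5.85 and 2.23 in control libraries 1 to 5 and 36.5, 197, 159, 22.5 and 12.9 in cytokine libraries 6 to 10. As with Ighm, libraries 7 and 8 were the highest, and control library 2 lay above cytokine libraries 6, 9 and 10. The means were 17.6 ± 20.6 and 85.5 ± 85.7 TPM (± SD, 5 per group), a log2 difference of 2.24 ± 0.90 (SE) with a limma adjusted p of 0.122. Without cytokine library 10 the log2 difference was 2.72 and the limma adjusted p was 0.0463; without libraries 6 and 7 it was 1.76 with an adjusted p of 0.386. The level of Igkc relative to Ighm ranged from 0.287 to 1.95 in control and from 0.844 to 1.85 in cytokine libraries.

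**Figure D1:**
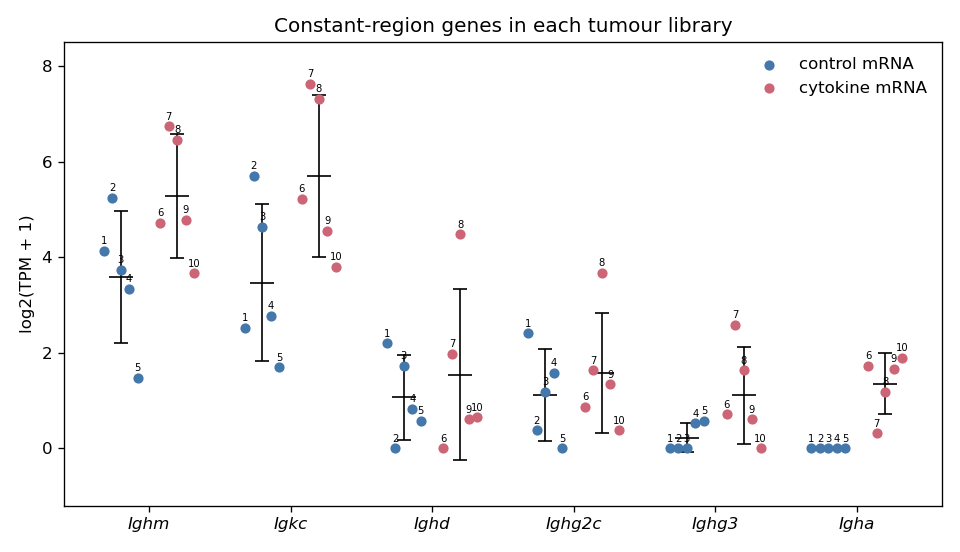
Each point is 1 tumour library, numbered, for 6 constant-region genes; the vertical axis is log2(TPM + 1), and the bars are the mean ± SD of 5 libraries per group. The groups overlap for Ighm, Igkc, Ighd, Ighg2c and Ighg3, while Igha is at 0 in all 5 control libraries and above 0 in all 5 cytokine libraries.

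Igha, the alpha chain of IgA, the main antibody class of mucosal surfaces, was the only one of the 263 rows whose groups did not overlap (chromosome 12, 113254830 to 113260236). It was listed at 0 in all 5 control libraries. In cytokine libraries 6 to 10 it was at 2.31, 0.239, 1.26, 2.17 and 2.73 TPM, and its highest value was in library 10 and its lowest in library 7, the reverse of Ighm and Igkc. These levels are low, and with 4 libraries at 1 TPM or more the row fell below the filter of the main test. In a limma fit with no filter on low values it was called higher (adjusted p = 0.0291), the only one called of 64 immunoglobulin rows in a fit that called 4.83% of 17505 rows, 3.86% higher. With single libraries left out of that fit the adjusted p ranged from 0.0146 to 0.0818, and the call was lost in 8 of 10 such fits, all but those leaving out library 7 or library 10. Without libraries 6 and 7 it was 0.0467. In the whole table, 24 rows shared this pattern of 0 in every control and a listed value in every cytokine library, of 2040 rows at 0 in every control and listed elsewhere; 1 row had the reverse pattern. Igha was singled out after its values were seen.

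The gamma chains of IgG were low in both groups. Ighg2c, which C57BL/6 mice carry in place of Ighg2a, was at 4.31, 0.298, 1.26, 1.99 and 0 TPM in control libraries 1 to 5 and at 0.823, 2.10, 11.7, 1.53 and 0.299 TPM in cytokine libraries 6 to 10. Library 8 stood above all others, and control library 1 was second. The log2 difference was 0.47 ± 0.64 (SE; limma adjusted p = 0.631), and without library 8 it was -0.06. Ighg3 was listed in 2 control libraries, at up to 0.494 TPM, and in 4 cytokine libraries, at up to 5.01 TPM in library 7. Ighg2b reached 0.663 TPM in control and 1.66 TPM in cytokine tumours, and Ighg1 was listed only in libraries 7 and 9, at 0.770 and 0.689 TPM. Ighg2b and Ighg2c are close paralogs whose reads the counting could split. Ighe, the epsilon chain of IgE, was at 0 in all 10 libraries.

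Ighd, the delta chain that naive B cells splice from the same primary transcript as the mu chain, was listed in 4 libraries of each group. It was at 3.58, 0, 2.31, 0.768 and 0.494 TPM in control libraries 1 to 5 and at 0, 2.93, 21.3, 0.525 and 0.566 TPM in cytokine libraries 6 to 10. The value of library 8 was far above the other 9, which overlapped between the groups.

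As shares of heavy chain constant TPM, which do not depend on how a library is scaled, the mu chain led in every tumour. It made up 64.4% to 98.4% (mean 76.0% ± 13.6) in control and 69.9% to 90.1% (mean 80.0% ± 7.83) in cytokine tumours (± SD, 5 per group). The 4 gamma genes together made up 1.63% to 19.8% in control and 4.02% to 12.1% in cytokine tumours. The alpha chain made up 0.203% to 17.5% in cytokine tumours, with the largest share in library 10. From 3 to 4 of the 8 heavy constant genes were listed per control library and 5 to 7 per cytokine library, so these counts did not overlap. This rests on Igha, which was listed in every cytokine library and in no control library. Without Igha the counts overlapped. The counts of chemosensory receptor rows listed were 11 to 22 in control and 20 to 276 in cytokine libraries, ranges that overlapped. Their part in the result was not tested.

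**Figure D2:**
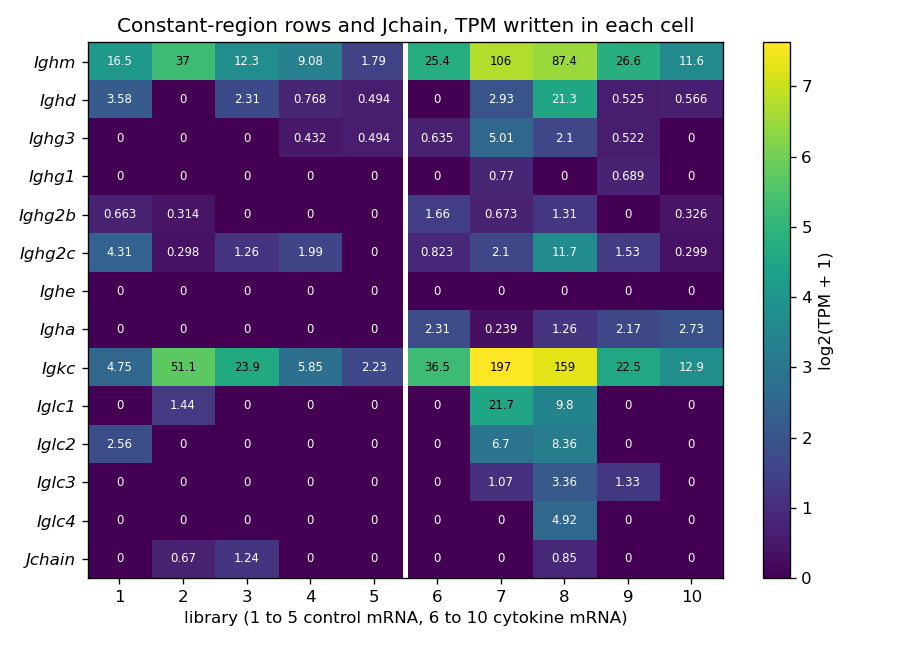
Constant-region rows and Jchain (vertical axis) in the 10 libraries (horizontal axis, with a white line between the groups); colour is log2(TPM + 1) and the number in each cell is the TPM. Ighm and Igkc are filled in every library, Igha in libraries 6 to 10 only, and most lambda values lie in libraries 7 and 8.

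The lambda constant genes were listed mainly in 2 tumours. Iglc1, Iglc2 and Iglc3 were at 21.7, 6.70 and 1.07 TPM in library 7 and at 9.80, 8.36 and 3.36 TPM in library 8, and Iglc4 was listed in library 8 alone, at 4.92 TPM. Outside these, Iglc3 was at 1.33 TPM in library 9, Iglc1 at 1.44 TPM in control library 2 and Iglc2 at 2.56 TPM in control library 1. Lambda therefore made up 0% to 14.3% of light chain constant TPM in cytokine tumours, and 0% to 35.0% in control tumours, where the highest share was that of library 1. Iglc genes are close copies, so their separate values are uncertain. Summed over all 13 constant genes, TPM averaged 37.1 ± 32.5 (SD, n = 5) for the controls and 161 ± 153 (SD, n = 5) for the cytokine group, with ranges of 5.01 to 90.2 and 28.4 to 344 that overlapped. The cytokine mean was 116 TPM without library 7 and 124 TPM without library 8.

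Jchain, the small protein that links IgM and IgA into polymers and is made by antibody-secreting cells, was listed in 3 libraries. It was at 0.670 and 1.24 TPM in control libraries 2 and 3 and at 0.850 TPM in cytokine library 8. The 4 other cytokine libraries had Igha above 0 and Jchain at 0.

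V segments encode most of the antigen-binding surface, and each B cell clone uses its own. Of 218 V rows (115 heavy, 100 kappa and 3 lambda), 48 were listed somewhere: 26 heavy, 20 kappa and 2 lambda. Control libraries 1 to 5 listed 5, 10, 2, 2 and 0 V segments, and cytokine libraries 6 to 10 listed 1, 13, 24, 4 and 2. Library 8 had the most, and without it the cytokine mean was 5 against 3.8 in control. Library 8 listed 28 chemosensory receptor rows, inside the range of 20 to 40 of cytokine libraries 6, 9 and 10, while library 7, with 13 V segments, listed 276. Library 6 listed 1 V segment although its Igkc, at 36.5 TPM, was above that of library 9, which listed 4.

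**Figure D3:**
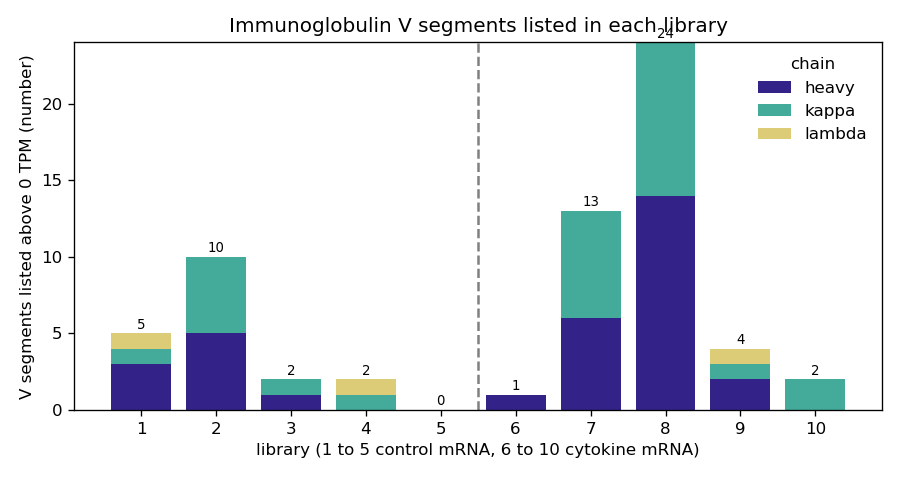
Number of V segments listed above 0 TPM (vertical axis) in each of the 10 libraries (horizontal axis), stacked by chain, with the total above each bar. Library 8 lists 24 and library 7 lists 13, control library 2 lists 10, and the other 7 libraries list 0 to 5.

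Most V segments were seen in a single tumour. Of the 48 listed, 33 appeared in 1 library and 15 in 2, and none appeared in 3 or more. The 10 V segments seen in both groups were 55.6% of the 18 seen in control tumours and 25.0% of the 40 seen in cytokine tumours. Without library 8, 5 were shared, 27.8% of the 18 and 25.0% of the 20 then seen in cytokine tumours. Without control library 2, 3 were shared, 33.3% of the 9 then seen in control and 7.5% of the 40. Of 63 listed values, 52 were under 10 TPM; the lowest was 2.35, the median 4.82 and the highest 39.3 TPM. Of the 54 rows of the large Ighv1 family, 13 were listed.

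The leading V segment differed from tumour to tumour. Igkv19-93 had the highest mean of all V rows and was at 39.3 TPM in control library 2 and 8.63 TPM in cytokine library 8, the leading kappa V segment in both. Ighv1-77, at 35.9 TPM, and Ighv2-3, at 21.4 TPM, were listed in library 8 alone. In library 7 the leaders were Igkv14-126 (28.0 TPM, and 4.27 TPM in library 8) and Ighv4-1 (25.6 TPM, listed nowhere else). In control tumours the leading heavy V segments were Ighv14-4 in library 1 (13.8 TPM), Ighv1-18 in library 2 (11.5 TPM) and Ighv5-17 in library 3 (4.93 TPM). The leading kappa V segments of control libraries 1, 3 and 4 were Igkv4-59 (5.94 TPM), Igkv9-124 (10.3 TPM) and Igkv2-109 (4.69 TPM). Cytokine libraries 6, 9 and 10 were led by Ighv12-3 (7.64 TPM, the only V segment listed there), Ighv1-80 (6.01 TPM, with Igkv8-30 at 3.39 TPM) and Igkv4-80 (10.7 TPM). Iglv1 was the lambda V segment of libraries 4 and 9, and Iglv2 that of library 1. Summed V segment TPM was 0 to 78.1 in control and 7.64 to 160 in cytokine tumours, and the groups overlapped. V segments of 1 family are alike in sequence, so a value may belong to a neighbour.

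The J rows gave the largest numbers in the group and the least information on level. Ighj1 was at 11638 TPM in control library 1 and 7119 TPM in cytokine library 7, Ighj3 at 15025 TPM in control library 2, and Ighj2 at 21856 TPM in cytokine library 8. Each was at 0 in all other libraries. Ighj2 was thus the row with the second highest TPM of library 8 and took 2.19% of its total, 250 times the TPM of Ighm there. TPM divides by length, and the Ighj2 sequence printed above has 48 bases against 1698 for Ighm; multiplied by these lengths, the value of Ighj2 was 7.07 times that of Ighm. The length that the deposited values were divided by is not given in the sources used here. These 4 values, in 2 libraries of each group, made up 93.6% to 99.4% of all immunoglobulin TPM in their libraries.

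All shorter segments were at 0. The 17 D rows, 5 kappa J rows and 5 lambda J rows had 0 TPM in every library, including libraries 7 and 8, where Igkc exceeded 150 TPM. In the whole table, none of the 41 rows whose longest transcript is under 48 bases was listed, 29 of 88 rows of 48 to 68 bases were, and none of 26 rows of 69 to 99 bases were. Among the heavy J rows, Ighj4, with 54 bases, was at 0 throughout. The sum of all 263 rows therefore followed the J rows: it averaged 5399 TPM (SD 7453, n = 5) in control tumours against 6024 TPM (SD 9681, n = 5) in cytokine tumours. Without D and J rows it averaged 66.5 ± 62.5 and 229 ± 227 TPM, with ranges of 5.01 to 169 and 42.3 to 483 that overlapped.

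Genes that mark B cells were mostly low. Their summed TPM was 29.97 to 65.9 in control and 73.6 to 257 in cytokine tumours, without overlap, and 19 of the 20 genes had a higher mean in cytokine tumours. The sum averaged 51.2 TPM in control and 158 TPM in cytokine tumours, of which Cd72 alone averaged 34.4 and 89.4 TPM. Without Cd72 the summed values of the groups overlapped. Of the 20, 4 could be tested: 1 rose and none fell, against 7.41% and 3.02% of all genes tested. At an unadjusted p under 0.05, 3 of the 4 passed, against 30.5% of all genes, and the median log2 difference was 1.38 against -0.18 over all genes. The number that rose was 3 without library 10. The gene that rose was Cd72, a co-receptor of B cells that some myeloid cells also express, from 34.4 ± 9.63 to 89.4 ± 41.6 TPM (log2 1.27 ± 0.33 SE, limma adjusted p = 0.0356); the call was lost in 8 of 10 fits with 1 library left out, those leaving out libraries 1 to 8. Cd79a, the signalling partner of surface immunoglobulin, was at 1.32 ± 0.772 and 1.69 ± 1.83 TPM (log2 0.04 ± 0.45, adjusted p = 0.961). Its partner Cd79b was below the filter, at 0.798 ± 0.393 and 4.87 ± 4.01 TPM, with groups that overlapped. Fcmr, the Fc receptor for IgM, was listed in control library 4 alone (2.84 TPM) and in cytokine libraries 6 to 9, at up to 21.2 TPM in library 8. Pax5, a B lineage factor singled out after its values were seen, was the only one of the 20 whose groups did not overlap. It was at 0.101 to 0.322 and 0.337 to 3.76 TPM, a narrow gap below the filter. Of all genes tested, 9.23% did not overlap, a share that does not cover rows below the filter. Cd22, an inhibitory receptor of B cells, had a log2 difference of 1.79 ± 0.68, and Ebf1, a B lineage factor also active in stromal cells, one of 1.49 ± 0.61; neither passed (adjusted p = 0.106 and 0.125). Ms4a1, the gene of the B cell surface protein CD20, chosen after its values were seen, reached at most 1.94 TPM, in library 8. Per library, 10 to 11 of the 20 genes were listed in control and 10 to 19 in cytokine tumours, with 19 in each of libraries 7 and 8, which also had the highest Ighm and Igkc.

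Genes of antibody-secreting cells gave a mixed picture. Of 12 plasma cell genes, 9 could be tested: 2 rose and none fell, against 7.41% and 3.02% of all genes tested, with a median log2 difference of 0.28. The 2 were Prdm1 and Irf4, named after their values were seen, which drive plasma cell fate and also act in activated T cells. Prdm1 was at 1.28 ± 0.489 and 8.12 ± 3.10 TPM (log2 1.93 ± 0.34 SE, limma adjusted p = 0.0127), and Irf4 at 0.745 ± 0.372 and 6.24 ± 3.50 TPM (log2 1.94 ± 0.37, adjusted p = 0.0145). The call for Irf4 was lost without library 6 (adjusted p = 0.0509), and both were lost without libraries 6 and 7 (0.0865 for Prdm1 and 0.0919 for Irf4). Without library 10, 3 of the plasma cell genes rose and 1 fell. With library weights, or with rescaling without mitochondrial genes and receptor segments, 1 also fell. Tnfrsf13b, a receptor for B cell survival factors, was at 0 to 5.89 TPM in control and 2.36 to 140 TPM in cytokine tumours, highest in library 7 (adjusted p = 0.0878). Xbp1 and Sdc1, abundant in plasma cells and in other cells, had log2 differences of -0.13 and 0.00 that passed no threshold (adjusted p = 0.840 and 0.993). Txndc5, a folding enzyme of the secretory pathway, was at 80.9 ± 13.1 and 46.6 ± 17.4 TPM (log2 -0.86, limma adjusted p = 0.0682). Its groups did not overlap (68.6 to 103 and 27.7 to 65.5 TPM), nor did those of Prdm1 and Irf4, as for 9.23% of all genes tested. Fkbp11, a folding enzyme, was at 28.0 ± 9.37 and 15.4 ± 5.08 TPM (log2 -0.82, limma adjusted p = 0.101). Creld2 was at 32.2 ± 9.32 and 38.1 ± 4.80 TPM (log2 0.28, limma adjusted p = 0.433). Tnfrsf17, a defining receptor of plasma cells, was at 0 in all 10 libraries. Mzb1, a chaperone of IgM assembly named after its values were seen, was at 0 in all control libraries and at 0.518 to 2.48 TPM in 4 of 5 cytokine libraries.

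The lymphocyte enzymes that rearrange immunoglobulin genes, Rag1, Rag2 and Dntt, were at or near 0. Of 8 genes for recombination, switching and hypermutation, 4 could be tested and none was called. At an unadjusted p under 0.05, 3 passed, as did 30.5% of all genes, and the median log2 difference was -0.98. Without library 10, or with library weights, 1 of the 4 was called lower in cytokine tumours. Those tested, Ung and Polh among them, are general DNA repair genes. Of the rearranging enzymes, Rag1 and Dntt reached at most 0.111 and 0.235 TPM, and Rag2 was at 0 in all libraries. None of the 3 surrogate light chain genes passed the filter, and Vpreb2 was at 0 throughout. Of 3 immunoglobulin transport genes, Pigr and Fcamr were at 0 throughout, and Fcgrt, the neonatal Fc receptor, was at 28.6 ± 28.3 and 33.3 ± 18.7 TPM (limma adjusted p = 0.674).

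Genes that attract, sustain or help B cells rose in part. Of 10 such genes, 7 could be tested, 4 rose and none fell, against 7.41% and 3.02% of all genes tested; the median log2 difference was 2.08. Tnfsf13b, the gene of the survival factor BAFF, named after its values were seen, was at 1.16 ± 1.03 and 7.46 ± 1.19 TPM (log2 2.06 ± 0.31 SE, limma adjusted p = 0.00961). Cd40, the receptor for T cell help, rose from 9.98 ± 11.8 to 78.2 ± 50.4 TPM, and Bcl6, the factor of germinal centre B cells and follicular helper T cells, from 10.0 ± 2.71 to 33.3 ± 11.8 TPM. Ltb, a lymphotoxin chain, rose from 1.66 ± 1.42 to 33.3 ± 31.7 TPM, a call lost in 9 of 10 fits with 1 library left out, the exception being library 10. Without libraries 6 and 7 the adjusted p was 0.102 for Cd40, 0.0873 for Bcl6 and 0.228 for Ltb. The number that rose was 2 without library 2, 6, 8 or 9, and 7 without library 10. The call for Cd40 was lost when library 2, 6, 8 or 9 was left out. The chemokines Cxcl13 and Cxcl12 and the survival factor Tnfsf13 had log2 differences of 2.01, 2.08 and 2.08 and did not pass (adjusted p = 0.0733, 0.0684 and 0.144). Of 8 genes of B cell receptor signalling, all tested, 5 rose and none fell. The number that rose was 3 without library 2 or 4, 1 without library 6 and 2 without library 8. Without library 10, 7 rose and 1 fell, and 1 also fell with rescaling without mitochondrial genes and receptor segments. Among the 5 that rose with all libraries were the kinases Syk (5.16 ± 2.71 to 39.3 ± 19.3 TPM) and Lyn (10.3 ± 6.20 to 56.7 ± 40.3 TPM), which myeloid cells also use, and the adaptor Pik3ap1 (log2 2.64). Cd81, a widely expressed membrane protein of the B cell co-receptor, was at 379 ± 118 and 196 ± 71.4 TPM (adjusted p = 0.0539). The call was lost for Syk without library 6, for Lyn without library 2, 4, 6 or 8, for Pik3ap1 without library 2, 4, 5, 6, 7, 8 or 9, and for all of them without libraries 6 and 7 (adjusted p = 0.105, 0.124 and 0.142).

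**Figure D4:**
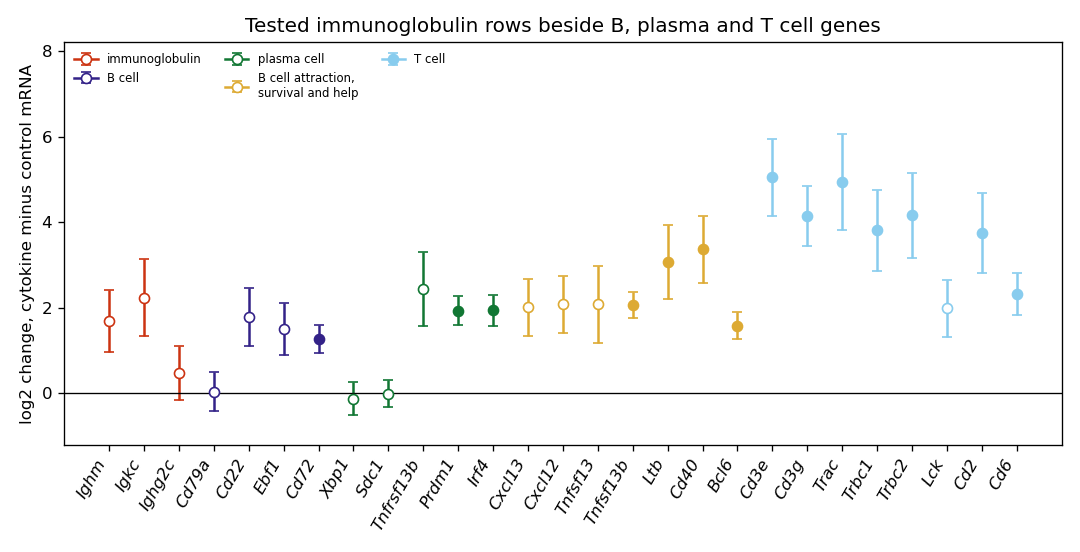
The log2 difference between cytokine and control mRNA tumours (vertical axis, ± SE from limma, 5 libraries per group) for the 3 tested immunoglobulin rows and for B cell, plasma cell, B cell support and T cell genes (horizontal axis); filled points have an adjusted p under 0.05. Ighm, Igkc and Ighg2c are open, at 1.69, 2.24 and 0.47, while Cd3e is filled, at 5.05.

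The order of Ighm and the T cell gene Cd3e differed between the groups. Cd3e, a signalling chain of the T cell receptor already known to have one of the largest rises in these data, is used for the comparison, so no test is given. The TPM of Ighm was 2.03, 10.2, 2.98, 1.89 and 2.93 times that of Cd3e in control libraries 1 to 5. It was 0.0725, 0.101, 0.542, 0.406 and 0.609 times that of Cd3e in cytokine libraries 6 to 10. Ighm thus lay above Cd3e in all 5 control tumours and below it in all 5 cytokine tumours. For Igkc the ratio was 0.583 to 14.1 in control and 0.104 to 0.986 in cytokine tumours, and these ranges overlapped through library 1. Of 10 T cell genes, 8 were tested, and 7 rose, against 7.41% of all genes tested, with a median log2 difference of 3.98. The number that rose was 4 without library 2, 3 or 4, 3 without library 5 and 2 without library 6 or 8. For Cd3e the adjusted p was 0.0127, and 0.0698 without libraries 6 and 7. T cell receptor V segments listed numbered 0 to 2 in control and 7 to 30 in cytokine tumours, which do not overlap, unlike the immunoglobulin V segments. Of the plasmacytoid dendritic cell genes, a further population that can carry rearranged heavy chain RNA, 3 of 6 were tested and 1, Siglech, rose. It was at 0.377 ± 0.843 and 4.51 ± 3.18 TPM (limma adjusted p = 0.0276), a call lost when library 1, 2, 3, 5, 6, 7 or 8 was left out. The more abundant Bst2 and Tcf4 were not called. Bst2 was at 309 ± 144 and 669 ± 139 TPM (log2 1.26, limma adjusted p = 0.0555). Tcf4 was at 221 ± 152 and 167 ± 33.4 TPM (log2 -0.21, limma adjusted p = 0.714). All 7 melanocyte genes were listed in all 10 libraries and none of the 7 was called (limma, 0 at an unadjusted p under 0.05). Their median log2 difference was -1.87 against -0.18 over all genes tested, and 0 of the 7 had a higher mean in cytokine tumours.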

How the data were processed

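The authors deposited 1 table of TPM (read share corrected for transcript length, each library scaled to the same total) with a row per gene symbol. Alignment with STAR to GRCh38, a human build, is named in the submitters' processing notes, although samples and symbols are mouse. The annotation, counting program and filters were not given in the sources used here. Per the labels' protocols, libraries were stranded and made from polyA RNA. TPM keeps no depth, so no counting interval or detection limit is given.

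Libraries were grouped by title; no number is shared between groups. The 12497 genes that reached 1 TPM in 5 or more libraries were compared as log2(TPM + 1) with limma 3.58.1 in R 4.3.3 (eBayes with trend, 2-sided, Benjamini-Hochberg over all genes tested, threshold 0.05), which understates changes of low genes. The step was checked on simulated data. Summed TPM, shares and segment counts are described without tests. Lengths, positions and sequences come from GENCODE M21, matched by symbol.

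The members and gene lists were chosen with earlier results of these data known. Genes named are all constant genes, the leading V and J rows by mean TPM, the leading V row of each library and up to 6 abundant members of each list; others are marked as chosen after their values were seen. Irf8 is not analysed here. Counts of rows listed and of list calls with libraries left out were added after seeing the data. Alternatives were other pseudocounts, filters, scalings, library weights, a stricter threshold and libraries left out.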

Additional observations from a re-analysis of the deposited data

Results flagged for a closer look

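Each value here lay far from the other 4 of its group, with a gap to its nearest neighbour of more than 0.71 of the group's range. This held for 16 of 41 sets of 5 values examined, where chance gives about 1 in 20 for normally spread values; 7 of the 16 were in library 8. Many are rows listed in a single library of the group, where the gap equals the range. The V and J rows examined were those with the highest mean TPM, which few libraries set. The rate of 1 in 20 is therefore no measure for them.

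In cytokine library 8, Ighd was at 21.3 TPM (next highest 2.93), Ighg2c at 11.7 TPM (next 2.10), Iglc4 at 4.92 TPM, Jchain at 0.850 TPM, Ighj2 at 21856 TPM, Ighv1-77 at 35.9 TPM and Igkv19-93 at 8.63 TPM, the last 5 at 0 in the rest of the group. In cytokine library 7, Ighj1 was at 7119 TPM, Ighv4-1 at 25.6 TPM and Igkv14-126 at 28.0 TPM (next 4.27).

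Among control tumours, library 1 stood apart in Ighj1 (11638 TPM), Iglc2 (2.56 TPM) and the lambda share of light chain constant TPM (35.0%, next 2.74%), and library 2 in Ighj3 (15025 TPM), Igkv19-93 (39.3 TPM) and Iglc1 (1.44 TPM).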

How the results depend on the processing

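No immunoglobulin row was called lower under any of 19 alternatives. The number called higher was 0 in 17 of them. It was 1 with no filter on low values (Igha), and ranged from 0 to 1 with single libraries left out (Igkc, without library 10). Ighm and Igkc were higher in the cytokine mRNA group in all 19, with log2 differences of 1.16 to 2.11 and 1.76 to 2.80 when single libraries were left out. Ighg2c ranged from -0.055 (without library 8) to 0.79 with single libraries left out, and was 0.99 with a pseudocount of 0.1 or with library weights. Cd79a reversed with a pseudocount of 0.1 (-0.30) and with rescaling without mitochondrial genes and receptor segments (-0.053), and ranged from -0.30 to 0.34 with single libraries left out. Xbp1 turned positive with median-ratio scaling (0.035), library weights (0.25) and without libraries 6 and 7 (0.40), and ranged from -0.30 to 0.27; Sdc1 did so at 0.16, 0.21 and 0.046, and ranged from -0.14 to 0.21. The causes were not tested. The alternatives given for Igha with no filter were added after seeing the data. The median log2 difference of all genes tested was -0.18, and it was -0.03 with median-ratio scaling and -0.31 with the rescaling. With single libraries left out, the difference in summed constant TPM ranged from 78.4 to 157 TPM, that in summed immunoglobulin TPM from -3452 to 3073 TPM (624 with all libraries, 162 without D and J rows), and that in V segments listed from 1.2 to 6.95. V segment counts were the same at a minimum of 0.1 or 1 TPM. No paired analysis was possible because the groups share no replicate number. Unknown depth limits every row at or near 0.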
